A study of Homo sapiens with 12 samples.

Results

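The RB and E2F families were described through 10 genes, RB1, RBL1, RBL2, E2F1, E2F2, E2F3, E2F4, E2F5, E2F7 and E2F8, which were matched by symbol to Ensembl identifiers among the 40649 genes counted. All 10 were found and all 10 passed the filter on low counts. The cell line is given as HK-2, an established human line derived from proximal tubule, in 12 libraries of 4 per group. The extraction protocol speaks of kidney tissue, and HK-2 was taken as the source of the RNA. The series concerns senescence of tubular cells under lasting oxidative stress. The YH libraries are labelled Yap1 knockdown with H2O2, the H2O2 libraries are labelled ShNC, the control hairpin, with H2O2, and the ShNC libraries carry the same control hairpin with the treatment given as Control. H2O2, hydrogen peroxide, was used at 150 µM for 48 h per the labels. No libraries of knockdown cells kept free of H2O2 were analysed here, and what the hairpin does alone was not tested. HK-2 cells were immortalised with the papillomavirus genes E6 and E7, and the E7 protein binds RB family proteins, which limits the line as a model of this pathway.

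RB1, RBL1 and RBL2 encode the pocket proteins pRB, p107 and p130, which bind E2F transcription factors and hold back genes of the cell cycle. Cyclin D with CDK4 or CDK6 and cyclin E with CDK2 phosphorylate the pocket proteins and free the E2Fs. E2F1, E2F2 and E2F3 mainly activate genes needed for DNA synthesis, E2F4 and E2F5 mainly act as repressors together with p107 and p130, and the atypical E2F7 and E2F8 bind DNA without a DP partner and repress. Exit from the cycle in senescence runs in large part through hypophosphorylated pocket proteins, a state that RNA counts do not measure.

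Total counts were between 30789997 and 46582873 per library. Genes of the mitochondrial genome took 11.3% of the counts in YH replicate 3 and 13.9% in ShNC replicate 4, with 4.54% to 5.64% in the remaining 10, and values without one or both are given where a member's result moved with them. YAP1 averaged 128 ± 11.7 CPM in YH, 156 ± 5.19 CPM in H2O2 and 133 ± 7.25 CPM in ShNC libraries. It was lower in YH than in H2O2 (log2 fold change -0.29 ± 0.07, adjusted p = 0.00346) and did not differ detectably from ShNC (-0.05 ± 0.07, adjusted p = 0.636), so the knockdown stands on the label. Epithelial markers (EPCAM, CDH1, KRT8, KRT18 and KRT19) summed to 1119.6 to 1159 CPM in YH, 1211 to 1258 CPM in H2O2 and 964 to 1237 CPM in ShNC libraries, and all 5 were above 3 counts in every library. The sum is mostly keratin, and its members differed in direction. CDH1 averaged 3.11 CPM in YH, 1.21 in H2O2 and 5.80 in ShNC libraries, and EPCAM 182, 141 and 185. In the same order KRT8 averaged 447, 531 and 474 CPM, KRT18 201, 209 and 140.0, and KRT19 312, 345 and 349.6. Of 9 proximal tubule markers only 3 were above 3 counts in every library, LRP2 (megalin) was above 3 counts in only 2, and the 9 summed to at most 10.3 CPM in YH, 7.23 CPM in H2O2 and 7.24 CPM in ShNC libraries. Endothelial and leukocyte markers summed to at most 0.486 CPM in any library. Fibroblast markers, mostly COL1A1, summed to 12 to 14.6 CPM in YH, 27.0 to 31.7 CPM in H2O2 and 9.88 to 14.9 CPM in ShNC libraries, and their part in the results was not tested. COL1A1 averaged 10.1 CPM in YH, 26.6 in H2O2 and 10.1 in ShNC libraries, and DCN 1.47, 1.85 and 0.691. PDGFRB went the other way (1.54, 1.27 and 2.10 CPM), and COL3A1 was above 3 counts in only 2 libraries. CPM values are counts scaled to library size with TMM factors, values after ± are SD over 4 libraries for CPM and SE for log2 fold changes, and a gene was called at an edgeR adjusted p under 0.05. Whether the 4 libraries of each group were grown as separate cultures is not in the labels. The p-values therefore set group differences only against the spread among these libraries, and that spread may be technical. In such bulk RNA, fewer cells with a transcript and less transcript per cell cannot be told apart.

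Per length of exon, E2F1 and E2F4 had the highest mean level of the members in every group. E2F1 had 29.4 ± 1.5 CPM per kb in YH, 28.4 ± 1.69 in H2O2 and 29 ± 4.65 in ShNC libraries, and E2F4 had 25.9 ± 3.44, 24.1 ± 0.587 and 24.7 ± 0.962 CPM per kb in the same groups. Their ranges over the 12 libraries, 22.1 to 32.1 and 23.4 to 30.8 CPM per kb, overlapped. RB1 was the most abundant pocket protein transcript, with 15.9 to 23.6 CPM per kb over all libraries, and the highest of these, in ShNC replicate 4, exceeded the E2F1 level of 22.1 CPM per kb there. RBL2 (9.88 to 13.5), E2F3 (10.4 to 12.8) and RBL1 (9.62 to 13.9 CPM per kb) followed with overlapping ranges. E2F7 lay below them at 5.26 to 9.09 CPM per kb, without overlap. E2F5, E2F2 and E2F8 were the least abundant. In YH libraries E2F5 (2.91 to 3.54 CPM per kb) lay above E2F2 (0.965 to 1.54), whereas in H2O2 libraries E2F2 (2.13 to 2.32) overlapped E2F5 (1.73 to 2.22). In ShNC libraries E2F5 (1.95 to 2.57) again lay above E2F2 (1.24 to 1.74). By group mean E2F8 was lowest in YH and H2O2 libraries and E2F2 in ShNC libraries. The lowest count of any member in a library was 128, for E2F8.

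**Figure D1:**
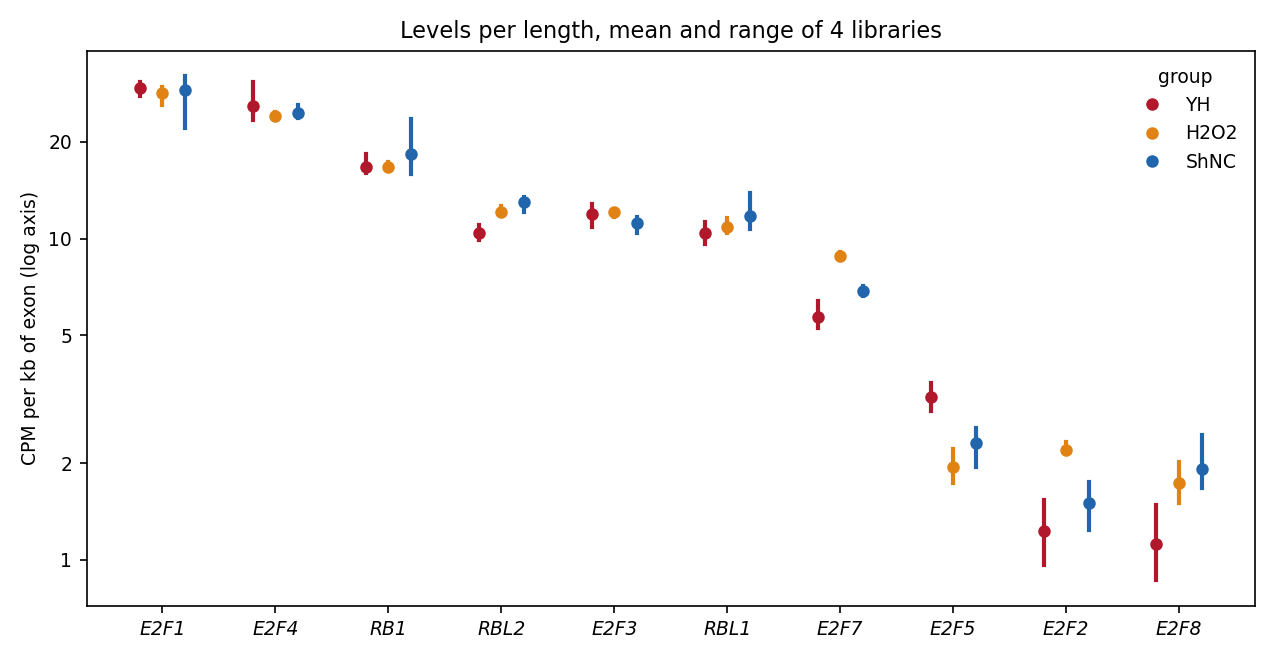
Level of each member as TMM-scaled CPM per kb of annotated exon (log axis) in YH, H2O2 and ShNC, with points for group means and lines from the lowest to the highest of 4 libraries. E2F1 and E2F4 stand highest and E2F5, E2F2 and E2F8 lowest, the last 3 all under 4 CPM per kb.

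With H2O2 in control-hairpin cells, 2 of the 10 members, E2F2 and E2F7, were called higher and 0 lower, and in both the groups did not overlap. Over all genes tested, 46.6% were called (23.9% higher and 22.6% lower) and 48.0% had groups that did not overlap. With DESeq2, or at an unadjusted p under 0.05 in edgeR, 1 member was lower, E2F5. The median absolute log2 difference was 0.13 over the members and 0.35 over all genes tested. In YH against H2O2 libraries, 5 of 10 members were called, 4 lower (RBL2, E2F2, E2F7 and E2F8) and 1 higher (E2F5), and these were the 5 whose groups did not overlap, beside 43.0% of all genes called (22.0% higher and 21.0% lower) and 45.2% without overlap. In YH against ShNC libraries, 4 members were called, RBL2, E2F7 and E2F8 lower and E2F5 higher, and again these were the 4 without overlap, beside 32.5% called (17.4% higher and 15.1% lower) and 29.7% without overlap. The 3 comparisons share libraries, so each is given with its own values.

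**Figure D2:**
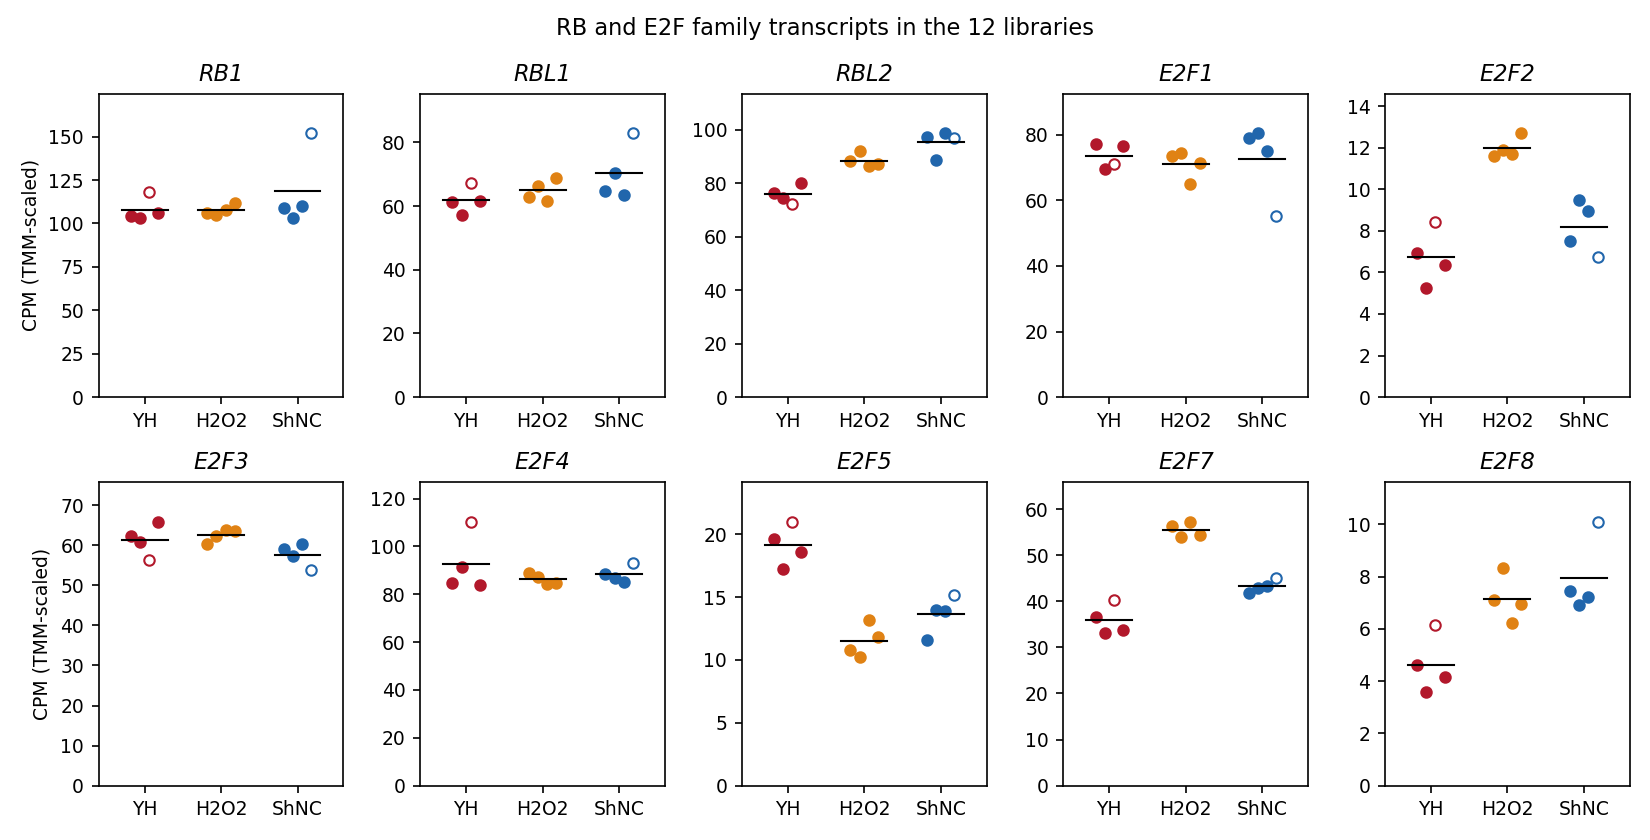
TMM-scaled CPM of each member in the 4 YH, 4 H2O2 and 4 ShNC libraries, with a bar at each group mean and open circles for the 2 mitochondria-rich libraries (YH replicate 3 and ShNC replicate 4). E2F7 falls into 3 bands without overlap, E2F5 is highest in YH, and RB1 is level apart from 1 ShNC library at 152 CPM.

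RB1 (ENSG00000139687, GRCh38 chromosome 13, 48303726 to 48599436), the retinoblastoma gene itself, did not pass the test in any comparison. Its level was 104, 103, 118 and 106 CPM in YH replicates 1 to 4, 106, 105, 108 and 112 CPM in H2O2, and 109, 103, 109.9 and 152 CPM in ShNC. The groups overlapped, and the 1 high value was that of ShNC replicate 4, the library with 13.9% mitochondrial counts. H2O2 against ShNC gave -0.14 ± 0.10 (95% interval -0.35 to 0.08, adjusted p = 0.289), and 0.00 both without ShNC replicate 4 and without the 2 mitochondria-rich libraries. YH against H2O2 gave 0.00 ± 0.10, with a 95% interval of -0.21 to 0.21 (adjusted p = 0.997), and -0.05 without those 2 libraries (adjusted p = 0.291). YH against ShNC gave -0.14 ± 0.10 (adjusted p = 0.333), and -0.04 without them (adjusted p = 0.377).

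RBL1 (ENSG00000080839, chromosome 20, 36996349 to 37095995), whose product p107 partners E2F4 in cycling cells, had 57.3 to 67.1 CPM in YH, 61.7 to 68.8 CPM in H2O2 and 63.6 to 82.9 CPM in ShNC libraries. The highest of these was again ShNC replicate 4. No comparison of RBL1 passed, with -0.12 ± 0.08 for H2O2 against ShNC (adjusted p = 0.266), -0.07 ± 0.08 for YH against H2O2 (adjusted p = 0.519) and -0.19 ± 0.08 for YH against ShNC (adjusted p = 0.0960). Without the 2 mitochondria-rich libraries RBL1 was called lower in YH than in H2O2 (-0.11, adjusted p = 0.0310) and than in ShNC (-0.15, adjusted p = 0.0102), and without YH replicate 3 alone it was called lower than in ShNC (-0.23, adjusted p = 0.0448). Removing shifts shared by neighbouring genes, as the median over a window of 51 genes in chromosome order, also brought YH against ShNC just past the threshold (-0.20, adjusted p = 0.0497).

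RBL2 (ENSG00000103479, chromosome 16, 53433977 to 53491649), which encodes p130, the pocket protein of resting cells and of the DREAM repressor complex, was the only family gene of the 3 that was called. Its level was 76.4, 74.7, 72.3 and 80.2 CPM in YH replicates 1 to 4, 88.2, 92.0, 86.4 and 87.3 CPM in H2O2, and 97.3, 88.6, 98.8 and 96.9 CPM in ShNC. Every YH library lay below every library of the other groups, whereas H2O2 and ShNC overlapped through ShNC replicate 2. RBL2 fell by 14.2% in YH relative to H2O2 (-0.22 ± 0.06, adjusted p = 0.00580) and fell by 20.4% relative to ShNC (-0.33 ± 0.06, adjusted p = 0.000427). H2O2 against ShNC did not pass (-0.11 ± 0.06, 95% interval -0.23 to 0.01, adjusted p = 0.139), but passed without the 2 mitochondria-rich libraries (-0.11, adjusted p = 0.0239). RBL2 shares 18.2% of its exon bases with other genes, AKTIP and ENSG00000279344, and the part of each was not computed. The use of strand in counting is not given in the sources used here, so the reads from those shared bases are uncertain. AKTIP had 21.2 ± 2.47 CPM in YH, 21.8 ± 1.6 CPM in H2O2 and 15.2 ± 0.809 CPM in ShNC libraries. It was called higher in H2O2 than in ShNC (0.52 ± 0.09, adjusted p = 0.000229) and in YH than in ShNC (0.48 ± 0.09, adjusted p = 0.000823), and was not called in YH against H2O2 (-0.04 ± 0.09, adjusted p = 0.772).

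Genes of the E2F family are themselves bound by E2Fs, and the starts of 4 members carry E2F-type letters. The 250 bases before the start were taken from RefSeq (GRCh38.p14) for the 8 members listed there, and searched on both strands for TTTCCCGC, TTTCCCGG, TTTCGCGC, TTTCGCGG, TTTGCCGC, TTTGCCGG, TTTGGCGC and TTTGGCGG. E2F1, E2F2, E2F3 and RBL1 held 3, 2, 2 and 2 matches, those of E2F1 partly overlapping, and RB1, RBL2, E2F4 and E2F7 held none. Of 35116 such windows over all genes, 5.23% held at least 1. The 90 bases next to the start are shown for these 4 and for E2F7, the atypical member that changed most clearly, with matches on either strand in capitals. They lie at chr20:33686386-33686475 (E2F1, minus strand), chr1:23531234-23531323 (E2F2, minus strand), chr6:20401789-20401878 (E2F3, plus strand), chr20:37095998-37096087 (RBL1, minus strand) and chr12:77065570-77065659 (E2F7, minus strand).
E2F1: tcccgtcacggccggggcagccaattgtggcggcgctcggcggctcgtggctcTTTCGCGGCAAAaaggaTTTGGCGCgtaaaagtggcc
E2F2: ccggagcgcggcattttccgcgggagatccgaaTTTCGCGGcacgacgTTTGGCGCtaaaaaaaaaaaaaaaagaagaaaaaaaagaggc
E2F3: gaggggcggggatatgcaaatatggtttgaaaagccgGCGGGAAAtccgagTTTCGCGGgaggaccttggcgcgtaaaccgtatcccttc
RBL1: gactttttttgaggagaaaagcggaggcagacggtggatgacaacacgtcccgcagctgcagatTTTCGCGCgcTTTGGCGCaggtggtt
E2F7: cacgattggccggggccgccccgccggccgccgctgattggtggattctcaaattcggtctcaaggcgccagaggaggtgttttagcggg
E2F1 and E2F2 both held TTTCGCGG followed by TTTGGCGC, from 37 to 13 and from 57 to 35 bases before the start. TTTGAA, the letters of the CHR element that DREAM binds, was found only before E2F3 (13.3% of all windows), and CATTCC, the core letters of the TEAD site, only before E2F4 (11.9% of all windows). The start listed for RB1 lies 172724 bases inside the gene and those for RBL2 lie 494 and 1642 bases inside it, so their main starts were not searched. E2F3 had a second listed start, 1708 bases inside the gene, and that window held 0 matches. E2F5 and E2F8 had no listed start and were not searched. A match describes letters and is no evidence of binding in these cells.

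Among the activators with such letters, E2F2 alone was called, and E2F1 and E2F3 were not. E2F1 (ENSG00000101412, chromosome 20, 33675683 to 33686404), the first E2F described and an activator of S-phase genes, had 77.1, 69.7, 71.2 and 76.6 CPM in YH replicates 1 to 4, 73.4, 74.4, 65.0 and 71.3 CPM in H2O2, and 79.0, 80.5, 75.1 and 55.3 CPM in ShNC. The groups overlapped, and the lowest value belonged to ShNC replicate 4. H2O2 against ShNC gave -0.03 ± 0.10 (95% interval -0.24 to 0.18, adjusted p = 0.837), and without the 2 mitochondria-rich libraries E2F1 was called lower (-0.14, adjusted p = 0.00653). YH against H2O2 gave 0.05 ± 0.10 (95% interval -0.16 to 0.26, adjusted p = 0.702).

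E2F2 (ENSG00000007968, chromosome 1, 23506430 to 23531220), an activator of low abundance here, rose with H2O2 and was lower in YH. Its level was 6.92, 5.27, 8.41 and 6.36 CPM in YH replicates 1 to 4, 11.6, 11.9, 11.7 and 12.7 CPM in H2O2, and 7.52, 9.49, 8.93 and 6.75 CPM in ShNC. The H2O2 libraries lay above all 8 others, while YH and ShNC overlapped. E2F2 was 46.5% higher in H2O2 than in ShNC (0.55 ± 0.14, adjusted p = 0.00330) and fell by 43.8% in YH relative to H2O2 (-0.83 ± 0.14, adjusted p = 0.000145). YH against ShNC did not pass (-0.28 ± 0.14, 95% interval -0.57 to 0.01, adjusted p = 0.136). That last difference passed without ShNC replicate 4 (-0.37, adjusted p = 0.0374), without YH replicate 3 (-0.40, adjusted p = 0.0242) and without both (-0.49, adjusted p = 0.000275). E2F2 made up 2.38% to 3.77% of the summed per-length level of the 3 activators in YH, 4.94% to 5.39% in H2O2 and 3.10% to 3.87% in ShNC libraries.

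E2F3 (ENSG00000112242, chromosome 6, 20401906 to 20493715), the third activator, was nearly level, with 56.3 to 65.9 CPM in YH, 60.4 to 63.7 CPM in H2O2 and 53.9 to 60.4 CPM in ShNC libraries. It did not pass for H2O2 against ShNC (0.12 ± 0.06, 95% interval -0.02 to 0.25, adjusted p = 0.146) or for YH against H2O2 (-0.02 ± 0.06, 95% interval -0.16 to 0.11, adjusted p = 0.781). After correction for neighbouring genes, as described for RBL1, H2O2 against ShNC passed (0.22, adjusted p = 0.0380). The summed per-length level of E2F1, E2F2 and E2F3 was 40.6 to 44.5 CPM per kb in YH, 40.4 to 44.0 in H2O2 and 33.8 to 45.0 in ShNC libraries, and overlapped throughout.

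The repressor E2Fs that work with p107 and p130 differed from each other. E2F4 (ENSG00000205250, chromosome 16, 67192169 to 67198918) had 84.9, 91.5, 110.4 and 83.7 CPM in YH replicates 1 to 4, 84.5 to 88.8 CPM in H2O2 and 85.3 to 93.2 CPM in ShNC libraries. The groups overlapped, and the highest value was that of YH replicate 3, the other mitochondria-rich library. E2F4 gave -0.03 ± 0.08 for H2O2 against ShNC (95% interval -0.20 to 0.13, adjusted p = 0.746) and 0.10 ± 0.08 for YH against H2O2 (95% interval -0.07 to 0.27, adjusted p = 0.327). The median of its window of 51 neighbouring genes was 0.21 in H2O2 against ShNC and -0.16 in YH against H2O2. After correction for these shifts E2F4 was called lower in H2O2 than in ShNC (-0.26, adjusted p = 0.0246) and higher in YH than in H2O2 (0.26, adjusted p = 0.0243). Without the 2 mitochondria-rich libraries E2F4 gave -0.02 for H2O2 against ShNC (adjusted p = 0.742) and 0.00 for YH against H2O2 (adjusted p = 0.934), and without YH replicate 3 alone the difference of YH from H2O2 was 0.01 (adjusted p = 0.935).

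E2F5 (ENSG00000133740, chromosome 8, 85177225 to 85217158) was the only member called higher in YH. Its product is a repressor that pairs with p130. Its level was 19.6, 17.2, 21.0 and 18.6 CPM in YH replicates 1 to 4, 10.8, 10.2, 13.2 and 11.8 CPM in H2O2, and 11.6, 14, 13.9 and 15.2 CPM in ShNC. Every YH library was above all 8 others, and H2O2 and ShNC overlapped. E2F5 was 66.1% higher in YH than in H2O2 (0.73 ± 0.10, adjusted p = 3.9e-05) and 39.5% higher than in ShNC (0.48 ± 0.10, adjusted p = 0.00224). With H2O2 it did not pass (-0.25 ± 0.11, 95% interval -0.48 to -0.03, adjusted p = 0.0617). That difference was called lower without ShNC replicate 1 (-0.32, adjusted p = 0.0222), without H2O2 replicate 3 (-0.32, adjusted p = 0.0287), without YH replicate 3 (-0.25, adjusted p = 0.0468), without the 2 mitochondria-rich libraries (-0.21, adjusted p = 0.0387) and with DESeq2 (-0.27, adjusted p = 0.0409). E2F5 shares 18.6% of its exon bases with other genes, among them RBIS, and is uncertain to that extent. RBIS was also higher in YH than in H2O2, by less (0.33 ± 0.08, adjusted p = 0.00332), and its part in the E2F5 count was not tested. As a share of E2F4 plus E2F5 per length, E2F5 held 10.2% to 12.2% in YH, 6.61% to 8.61% in H2O2 and 7.32% to 8.99% in ShNC libraries.

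The atypical repressors were both lower in YH, and E2F7 also rose with H2O2. E2F7 (ENSG00000165891, chromosome 12, 77021247 to 77065580), known as a target of p53 as well as of E2F1, had 36.5, 33.1, 40.3 and 33.8 CPM in YH replicates 1 to 4, 56.3, 53.9, 57.3 and 54.5 CPM in H2O2, and 41.9, 42.8, 43.4 and 45.0 CPM in ShNC. The 3 groups formed 3 separate bands, with H2O2 on top, ShNC in the middle and YH at the bottom. E2F7 was 28.3% higher in H2O2 than in ShNC (0.36 ± 0.07, adjusted p = 0.000468), fell by 35.3% in YH relative to H2O2 (-0.63 ± 0.07, adjusted p = 2.7e-06) and fell by 17.0% in YH relative to ShNC (-0.27 ± 0.07, adjusted p = 0.00717). It was the only member called in all 3 comparisons, and no exon base of E2F7 lies in another counted gene.

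E2F8 (ENSG00000129173, chromosome 11, 19224063 to 19241620), the closest relative of E2F7, had 4.60, 3.57, 6.15 and 4.17 CPM in YH replicates 1 to 4, 7.11, 8.34, 6.21 and 6.93 CPM in H2O2, and 7.46, 6.92, 7.22 and 10.1 CPM in ShNC. The YH libraries lay below all others, though YH replicate 3 came close to the lowest H2O2 library. E2F8 fell by 35.5% in YH relative to H2O2 (-0.63 ± 0.17, adjusted p = 0.00617) and fell by 41.8% relative to ShNC (-0.78 ± 0.17, adjusted p = 0.00205). Without the 2 mitochondria-rich libraries the difference from H2O2 was -0.80 (adjusted p = 5.1e-07) and that from ShNC was -0.81 (adjusted p = 1.6e-06). Without ShNC replicate 4 alone, which held the highest level, the difference from ShNC was -0.65 (adjusted p = 0.00362). H2O2 against ShNC did not pass for E2F8 (-0.15 ± 0.16, 95% interval -0.49 to 0.20, adjusted p = 0.491), and was -0.01 without ShNC replicate 4. Together E2F7 and E2F8 summed to 6.12 to 7.89 CPM per kb in YH, 10.3 to 10.7 in H2O2 and 8.44 to 9.58 in ShNC libraries.

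**Figure D3:**
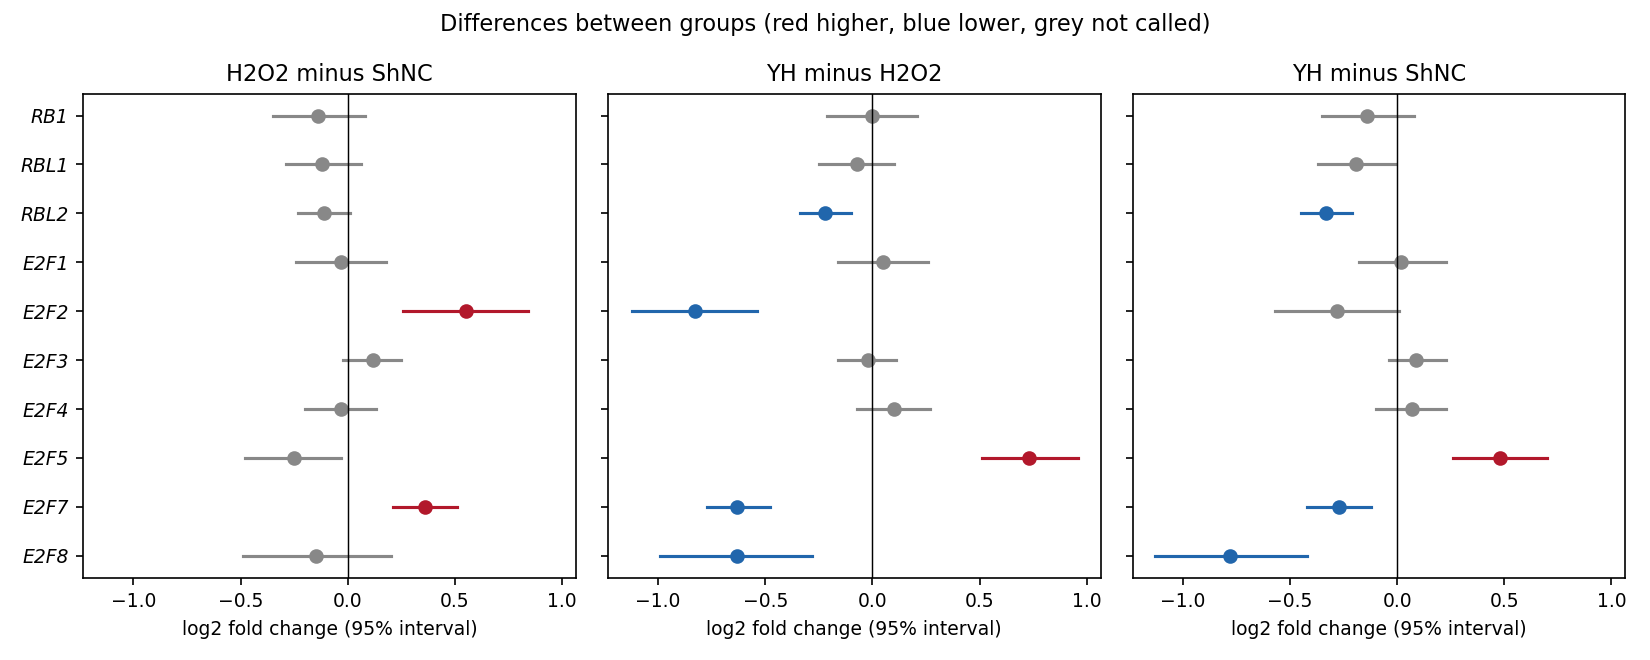
Log2 fold change of each member with its 95% interval in H2O2 against ShNC, YH against H2O2 and YH against ShNC, in red where called higher, blue where called lower and grey otherwise. E2F7 is coloured in all 3 panels, E2F5 lies to the right in both YH panels, and the intervals of RB1, E2F1, E2F3 and E2F4 cross 0 in each panel.

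**Figure D4:**
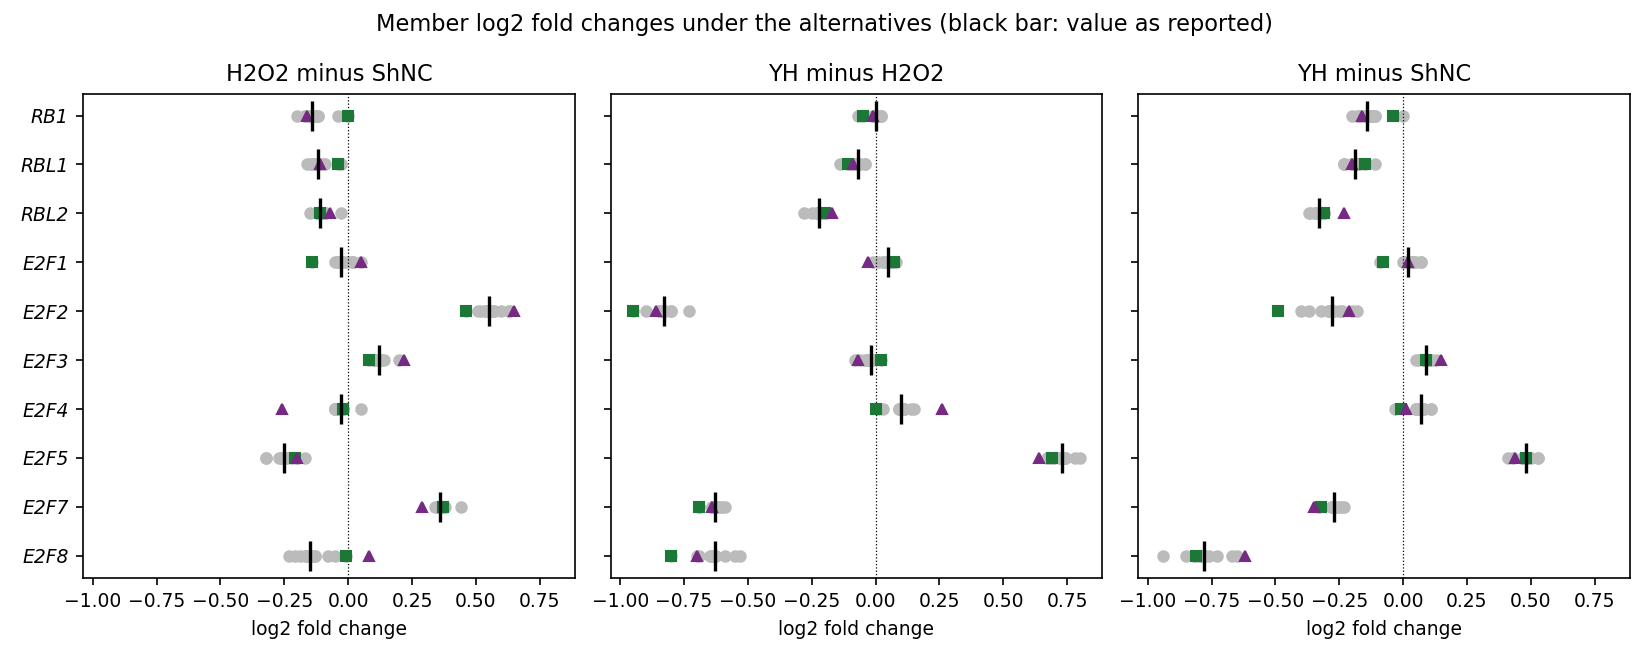
Log2 fold change of each member under 22 alternatives of processing (dots) in the 3 comparisons, with a black bar at the value reported, a green square without the 2 mitochondria-rich libraries and a purple triangle after correction for neighbouring genes. E2F7 in YH against H2O2 stays between -0.69 and -0.59, and each called member keeps its side of 0.

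Patterns most like those of the called members were sought among 11404 named genes averaging 5 CPM or more, by the root mean square difference of log2 CPM centred per gene over the 12 libraries. For E2F7 these were POMT2, an O-mannosyltransferase (0.051), and OXCT1, an enzyme of ketone body use (0.071), against a median of 0.35 over all candidates. For E2F8 they were POLE2, a subunit of DNA polymerase epsilon (0.088), and TUBA1A (0.103), with a median of 0.48. E2F2 was matched by TKFC (0.096) and GALNT14 (0.120), E2F5 by TSC22D2 and NIBAN1 (0.10 each), and RBL2 by RBM12 (0.034) and CASP8AP2 (0.054). These genes were picked as the smallest distances, so lying below the median is fixed by the choice and shows no link.

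The DP proteins are the partners with which E2F1 to E2F5 bind DNA, and both tested DP genes were called lower with H2O2. TFDP1 averaged 123 ± 6.67 CPM in YH, 95.1 ± 2.85 CPM in H2O2 and 170.0 ± 2.21 CPM in ShNC libraries. It fell with H2O2 (-0.84 ± 0.06, adjusted p = 6.0e-09) and was higher in YH than in H2O2 (0.37 ± 0.06, adjusted p = 6.6e-05), while still lower in YH than in ShNC (-0.47 ± 0.06, adjusted p = 9.4e-06). TFDP2, on chromosome 3, fell with H2O2 (-0.30 ± 0.07, adjusted p = 0.00132) and was higher in YH than in H2O2 (0.46 ± 0.07, adjusted p = 3.4e-05). Both directions of TFDP2 turned round after correction for neighbouring genes (0.44 and -0.18, adjusted p = 7.6e-05 and 0.0490), whereas TFDP1 kept its own (-0.71 and 0.35). E2F6, a repressor that works without pocket proteins, rose with H2O2 (0.28 ± 0.11, adjusted p = 0.0445), but not after that correction (0.12, adjusted p = 0.296), and it lost its call in 8 of 12 fits that left out 1 library (adjusted p up to 0.106), those without ShNC replicates 1, 2 or 4, H2O2 replicates 1, 2 or 4, or YH replicates 1 or 2. TFDP3 did not pass the filter on low counts.

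Upstream of the pocket proteins, 3 of 8 G1 cyclins and kinases were higher and 2 lower in H2O2 against ShNC, and 1 was higher and 5 lower in YH against H2O2. Over all genes tested, 46.6% and 43.0% were called in these comparisons, about as many higher as lower, and the totals of this and of the following lists are to be read beside those shares. CCND1, cyclin D1, averaged 29.9 ± 3.06 CPM in YH, 124 ± 3.81 CPM in H2O2 and 19.7 ± 0.401 CPM in ShNC libraries. It rose with H2O2 (2.65 ± 0.07, adjusted p = 4.4e-13) and was lower in YH than in H2O2 (-2.05 ± 0.07, adjusted p = 1.4e-11). CCND2 went the same way (1.33 ± 0.07 and -0.55 ± 0.07), and CCND3 the opposite way (-0.62 ± 0.10 and 0.56 ± 0.10). CDK2, the partner of cyclin E, fell with H2O2 (-0.49 ± 0.07), and CCNE2 was lower in YH than in H2O2 (-0.71 ± 0.14, adjusted p = 0.000985). Of the CCNE2 exon bases 37.1% also belong to another gene, and of those of CCND1 10.3%. Of 7 CDK inhibitors, 2 were higher and 2 lower in H2O2 against ShNC and 2 higher and 1 lower in YH against H2O2, again beside 46.6% and 43.0% of all genes. CDKN1A, p21, was higher in both (0.53 ± 0.06 and 0.15 ± 0.06, adjusted p = 1.1e-06 and 0.0354), the second not after correction for neighbouring genes (0.12, adjusted p = 0.0836), nor without H2O2 replicates 2, 3 or 4 or YH replicates 1 or 2 (adjusted p up to 0.103). CDKN1C, p57, fell with H2O2 and was higher in YH (-1.40 ± 0.10 and 0.57 ± 0.10), CDKN2B rose with H2O2 (0.51 ± 0.11) while CDKN1B fell (-0.31 ± 0.10, adjusted p = 0.0236, adjusted p = 0.156 after that correction, and up to 0.0818 without ShNC replicate 2 or any 1 H2O2 library), and CDKN2C was lower in YH than in H2O2 (-0.76 ± 0.13).

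Downstream, more of the 30 G1/S genes regulated by E2F were lower than higher in each comparison. In H2O2 against ShNC 3 were higher and 17 lower (all genes 23.9% and 22.6%), with a median of -0.25 against 0.00 over all genes tested. In YH against H2O2 4 were higher and 12 lower (all genes 22.0% and 21.0%), with a median of -0.15. In YH against ShNC 1 was higher and 23 lower (all genes 17.4% and 15.1%), with a median of -0.43. UHRF1, an adaptor of DNA methylation, averaged 69.5 ± 7.28 CPM in YH, 149 ± 6.03 CPM in H2O2 and 127 ± 27.0 CPM in ShNC libraries (-1.10 ± 0.13 for YH against H2O2, adjusted p = 8.0e-06). PCNA, the sliding clamp, was lower in YH than in H2O2 as well (-0.59 ± 0.07, adjusted p = 6.6e-06), while CDT1, the licensing factor, was higher (0.61 ± 0.10, adjusted p = 0.000165). The largest falls with H2O2, RFC4 (-0.71 ± 0.08) and MCM2 (-0.69 ± 0.10), were -0.13 and -0.07 after correction for neighbouring genes and then did not pass. The same holds for the rises of the chromatin assembly genes CHAF1A (0.34 ± 0.09, then -0.05) and CHAF1B (0.28 ± 0.08, then -0.16). In YH against H2O2 CHAF1A (-0.54 ± 0.09, then -0.31) and CHAF1B (-0.53 ± 0.08, then -0.04) were lower, MCM2 (0.68 ± 0.10, then 0.13) was higher, and only CHAF1A still passed after that correction. MCM2 shares 23.6% of its exon bases with other genes and is uncertain to that extent. With library sizes alone the count for H2O2 against ShNC was 3 higher and 10 lower, beside 5375 and 3520 of all genes tested. Without the 2 mitochondria-rich libraries the count for YH against H2O2 was 6 and 19, and that fit called 57.3% of all genes. After correction for neighbouring genes, 1 of the 30 was higher and 16 lower in H2O2 against ShNC (43.0% of all genes called). The counts were then 2 and 11 in YH against H2O2 (39.1%), and 1 and 23 in YH against ShNC (33.1%).

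Of 25 G2/M genes repressed by DREAM, the complex of p130, E2F4 and MuvB, 0 were higher and 17 lower in H2O2 against ShNC by edgeR, with 0 higher at an unadjusted p under 0.05 and 0 by DESeq2. Over all genes tested, 23.9% were higher and 22.6% lower. The list median was -0.28. After correction for neighbouring genes 1 of the 25 was higher and 15 lower (43.0% of all genes called). In YH against H2O2 5 were higher and 7 lower (all genes 22.0% and 21.0%), with a median of -0.02. After that correction 2 were higher and 8 lower (39.1% of all genes called). In YH against ShNC 0 were higher and 18 lower (all genes 17.4% and 15.1%), with a median of -0.40. There the corrected counts were 0 and 17 (33.1% of all genes called). Again 0 were higher there by DESeq2 or at an unadjusted p under 0.05. AURKA fell with H2O2 (-0.84 ± 0.09), as did PLK1 (-0.79 ± 0.14), which shares 12.5% of its exon bases with other genes. KIF11 was lower in YH than in H2O2 (-0.49 ± 0.05, adjusted p = 2.6e-06), as was KIF20A (-0.46 ± 0.10), while ECT2 (0.57 ± 0.06, then 0.06 after that correction) and NEK2 (0.48 ± 0.09, then 0.17) were higher. In MuvB and its partners 2 of 7 were higher and 3 lower with H2O2, beside 46.6% of all genes called. MYBL2, the B-MYB factor that MuvB binds in S phase, fell (-0.52 ± 0.11) and LIN9 fell (-0.51 ± 0.09). LIN54, which contacts the CHR element, rose (0.22 ± 0.09, adjusted p = 0.0477), as did LIN52 (0.36 ± 0.11, adjusted p = 0.0160, but 0.04 after that correction). In both the groups overlapped, and neither was called without ShNC replicate 1 or without ShNC replicate 2. LIN54 lost its call in 9 of 12 fits that left out 1 library (adjusted p up to 0.172), also those without ShNC replicate 3, H2O2 replicates 1, 3 or 4, or YH replicates 1, 2 or 4. In YH against H2O2 LIN9 alone of the 7 was called, higher (0.30 ± 0.09, adjusted p = 0.0165), beside 43.0% of all genes. Its adjusted p was 0.0613 without H2O2 replicate 1, and its log2 fold change was -0.02 after correction for neighbouring genes.

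Among 11 chromatin partners of RB, 6 were called in H2O2 against ShNC (5 higher, 1 lower) and 6 in YH against H2O2 (1 higher, 5 lower), beside 46.6% and 43.0% of all genes, so these totals are near those over all genes. SMARCA2, an ATPase of the SWI/SNF remodeller, averaged 32.3 ± 2.53 CPM in YH, 57.6 ± 1.34 CPM in H2O2 and 30.4 ± 0.503 CPM in ShNC libraries. It rose with H2O2 (0.92 ± 0.07, adjusted p = 1.5e-08) and was lower in YH than in H2O2 (-0.84 ± 0.07, adjusted p = 7.3e-08), and SIN3B, a corepressor scaffold, did the same (0.55 ± 0.06 and -0.53 ± 0.06, but 0.12 and -0.07 after correction for neighbouring genes, when it did not pass). KMT5C was lower and KMT5B higher in YH than in H2O2 (-0.59 ± 0.14 and 0.26 ± 0.07), and RBBP7 fell with H2O2 (-0.33 ± 0.06). After that correction the split for H2O2 against ShNC was 1 higher and 3 lower (43.0% of all genes called). For YH against H2O2 it was then 2 higher and 4 lower (39.1% of all genes called).

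**Figure D5:**
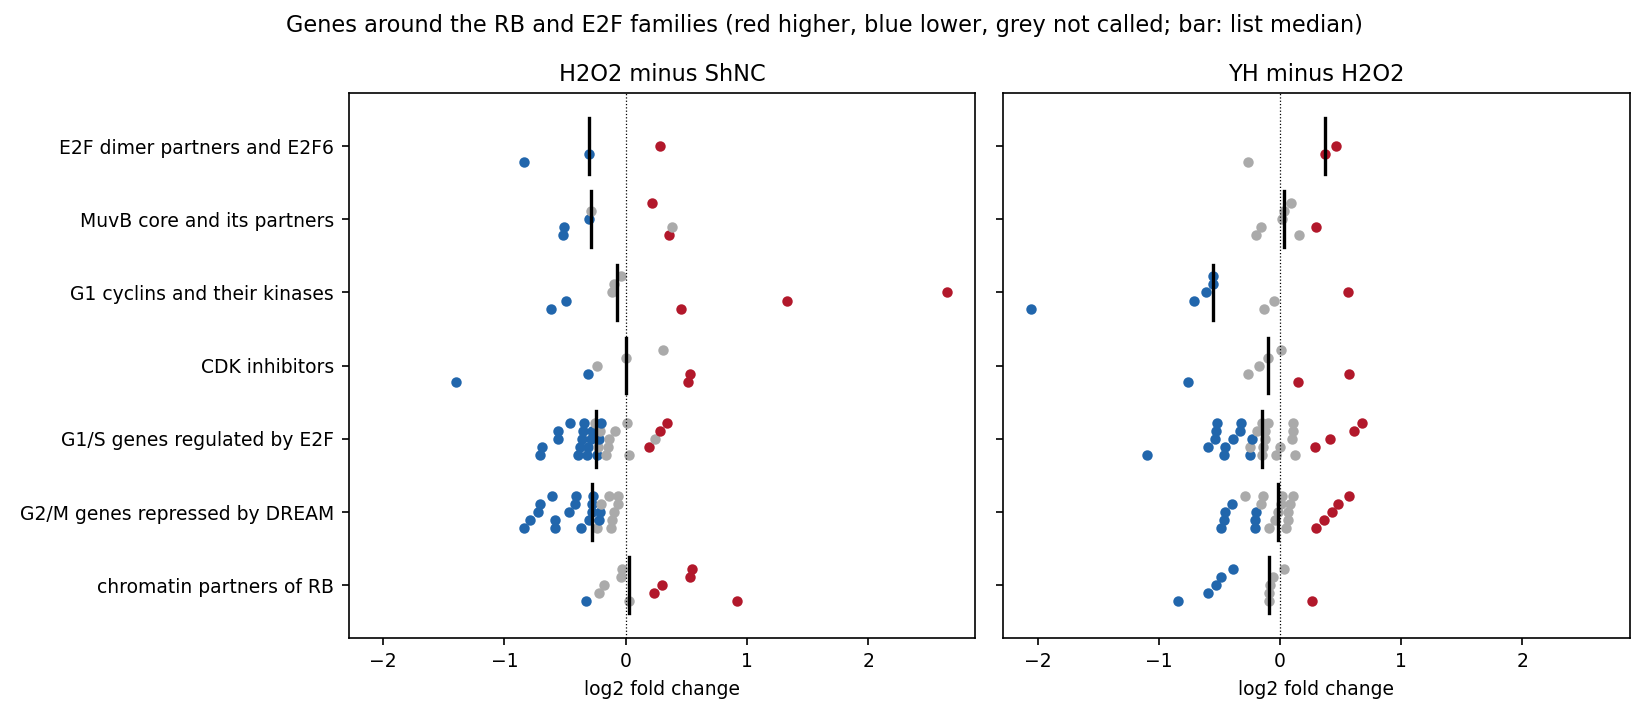
Log2 fold change of each tested gene in 7 lists around the RB and E2F families, for H2O2 against ShNC and for YH against H2O2, in red where called higher, blue where called lower and grey otherwise, with a bar at each list median. The G1/S and G2/M genes lie mostly left of 0 with H2O2 (medians -0.25 and -0.28), and CCND1 stands alone at 2.65 and -2.05.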

How the data were processed

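For every library the authors deposited raw counts, as whole numbers for 40649 Ensembl genes. The tools are HISAT2, featureCounts and Subread, with DESeq2 also listed, on GRCh38 (hg38), per the submitters' processing notes. Their versions, roles and strand setting are not given in those notes. Symbols came from a table of gene names (40555 identifiers), and positions, exon lengths and exon overlaps from GENCODE on GRCh38. No pair of libraries in a group was a duplicate deposit (chi-square of counts per degree of freedom 2.85 or above), which does not show that they are biological replicates.

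Counts were tested with edgeR 4.0.16 (R 4.3.3): filterByExpr by group (19268 genes), TMM factors, a robust quasi-likelihood fit of all 12 libraries with 1 mean per group, and Benjamini-Hochberg adjustment over all genes tested. Adjusted p-values are from edgeR unless DESeq2 (1.42.0) is named. The script was tested on simulated data. For the correction for neighbouring genes, each gene's median deviation per library over 51 genes in chromosome order was taken out as an offset. A count of 3 corresponds to 0.0644 to 0.0974 CPM, for counting error only.

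Members and lists were chosen with earlier results of these data known, so no list was tested as a set. Named genes were the members, YAP1, up to 2 called genes with the largest rise and 2 with the largest fall per list and comparison (mean of at least 5 CPM, for H2O2 against ShNC and YH against H2O2), and the 2 genes most like each called member. Alternatives covered scaling, filter, tool, libraries, replicate block and neighbouring genes; those for YAP1 and the lists were added after seeing the data.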

Additional observations from a re-analysis of the deposited data

Results flagged for a closer look

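In ShNC replicate 4, RB1 stood at 152 CPM, against 103 to 109.9 CPM in the other 3 ShNC libraries, and E2F8 stood at 10.1 CPM, against 6.92 to 7.46 CPM. Both were picked out because the gap to the nearest library took up most of the range of the group (0.854 and 0.830). Of 30 groups of 4 examined (10 members in 3 groups), these 2 were the only ones past the limit, and chance gives about 1 in 20. This library had 13.9% mitochondrial counts. Its part in the values was not tested. Without it, RB1 differed by 0.00 in H2O2 against ShNC.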

How the results depend on the processing

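Each of the 11 calls of members kept its direction and stayed under an adjusted p of 0.05 in all 22 alternatives, with E2F7 in YH against H2O2 between -0.69 and -0.59 and E2F5 between 0.64 and 0.80. For H2O2 against ShNC the number of members called was 2, and 5 (2 higher, 3 lower) without the 2 mitochondria-rich libraries and 4 (3 higher, 1 lower) after correction for neighbouring genes. Over all genes tested the same fits called 59.4% and 43.0%, beside 46.6%, so calls also rose across the table without the 2 libraries. Leaving out single libraries gave 2 to 3 members for H2O2 against ShNC, 5 to 5 for YH against H2O2 and 4 to 6 for YH against ShNC, and 8067 to 10038, 7196 to 9684 and 5346 to 7298 genes over the whole table. Of 660 values of members under alternatives, 643 stayed on their side of the threshold, 17 passed it newly, 0 lost a call and 0 reversed a call. Same-numbered libraries of different groups did not deviate together (correlations of -0.222 to 0.103 over genes, 1 of 12 pairs above 0.1), so the numbers were not taken as pairs. A fit with the replicate block gave 8536, 7798 and 5731 genes and 2, 5 and 4 members in the same comparisons, and changed no call of a member. With library sizes alone the median of all genes moved to 0.09 in H2O2 against ShNC and to -0.07 in YH against H2O2. E2F8 and E2F2 had the lowest counts, 128 and 189 in their lowest library, which limits their precision.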
